A study of Arabidopsis thaliana with 15 samples.

Results

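Leaf transcripts of the Arabidopsis thaliana septuple mutant topp-7m were compared with those of the pp1r3-2 topp4-1 double mutant. The members are the 3 topp-7m libraries and the 3 pp1r3-2 topp4-1 libraries, taken by the genotype in the labels, out of 15 libraries in all. The other 9 libraries (3 each of wild type, pp1r3-2 and topp4-1) were used for the common estimate of the spread and for levels given beside the results. All plants were in the Columbia background, untreated, grown in a greenhouse with 16-h days and 8-h nights at 23 ℃, and leaves were taken 21 days after germination. topp-7m carries mutations in 7 TOPP genes, which the labels do not list. pp1r3-2 topp4-1 carries a mutation of the regulatory subunit gene PP1R3 together with the topp4-1 allele of TOPP4, and no mutation is labelled as shared by both groups. The labels describe no complemented line and no second line of either mutant. They also do not say whether the libraries of a group came from separate plants, so the p-values measure the spread between these libraries.

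TOPP genes encode the catalytic subunits of type one protein phosphatase (PP1), a serine and threonine phosphatase found in all eukaryotes. The catalytic subunit has little specificity of its own and works in complexes with regulatory subunits that direct it to substrates or hold it inactive. In Arabidopsis the topp4-1 allele is a missense allele known to act as a dominant negative, and TOPP4 has been linked to gibberellin, auxin and phytochrome signalling. The comparison sets mutations in several catalytic subunits against a combination of a regulatory subunit mutation with a dominant allele of 1 catalytic subunit.

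The 6 libraries held 18052020 to 19916914 counts in topp-7m and 18310335 to 19241457 in pp1r3-2 topp4-1. Of the 33024 genes in the table, 20037 had enough counts to be tested. The median absolute log2 difference between libraries was 0.183 to 0.235 within topp-7m, 0.148 to 0.268 within pp1r3-2 topp4-1 and 0.195 to 0.320 between the groups. pp1r3-2 topp4-1 replicate 3 stood apart from the other libraries of its group, at 0.268 and 0.235 against 0.148 for replicates 1 and 2. Leaf markers were abundant in every library, with summed levels of 29580 to 33270 CPM (the count scaled to library size) in topp-7m and 33920 to 36330 CPM in pp1r3-2 topp4-1. The 12 flower and meristem markers summed to 11.9 to 22.1 CPM in topp-7m, to 17.9 and 22.8 CPM in pp1r3-2 topp4-1 replicates 1 and 2 and to 3.04 CPM in replicate 3. AP1 was at 0 in all 6 libraries. Meristem genes STM and KNAT1 gave 5 and 2 counts in pp1r3-2 topp4-1 replicate 3, the lowest of the 6 libraries. Root markers summed to 44.8 to 49.2 CPM and 45.3 to 52.0 CPM, mostly from SHR and SCR, and PLT1, PLT2, COBL9 and RHD6 were at 0. Seed markers reached at most 0.108 CPM. These marker sums use unadjusted library sizes, while the levels of single genes below use adjusted ones. The part of these differences between libraries in the results below was not tested.

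**Figure D1:**
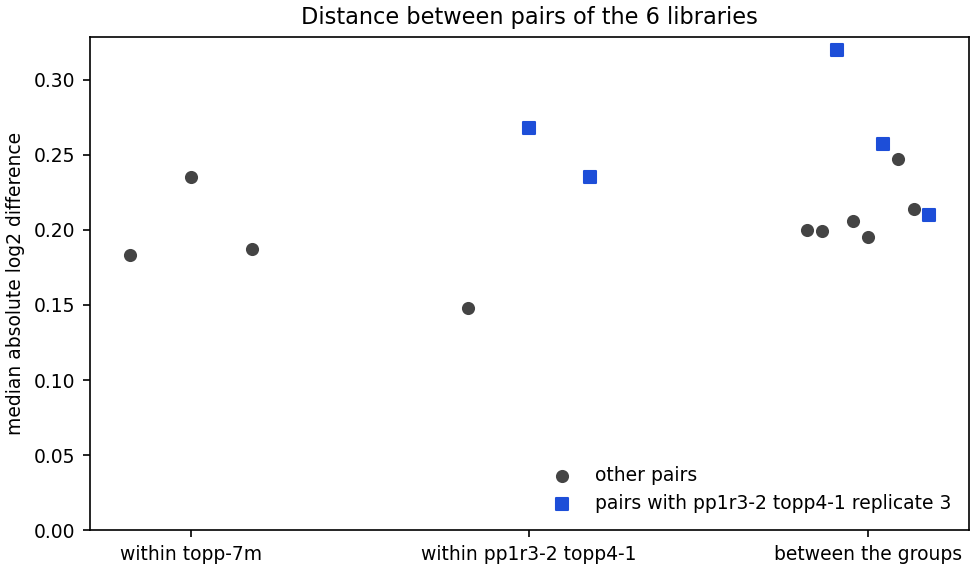
Each point is a pair of the 6 libraries and the vertical axis gives the median absolute log2 difference of their CPM over the genes tested. Pairs within topp-7m lie at 0.183 to 0.235, pairs between the groups at 0.195 to 0.320, and the pairs with pp1r3-2 topp4-1 replicate 3 (squares) include the highest values.

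The leaves of topp-7m and pp1r3-2 topp4-1 differed in 567 genes, 2.83% of those tested, with 164 higher in topp-7m (0.818%) and 403 lower (2.01%). Among the called genes that the naming rule takes by fold, the lowest were the heat shock factor gene HSFA2, TOPP4 and another catalytic subunit gene. The highest were dark-induced BGLU30 and the chlorophyll synthesis gene PORA. Of these, HSFA2 was called in only 2 of the 6 fits that leave out a library. A gene was called at an adjusted p under 0.05 in the quasi-likelihood F test of edgeR, adjusted over all genes after Benjamini and Hochberg, and all adjusted p-values below are from that test. A log2 fold change is positive where topp-7m was higher and is given ± SE. Most differences were small, since the median absolute log2 fold change was 0.621 over the called genes and 0.15 over all genes tested. Only 87 called genes (0.434%) reached an absolute log2 fold change of 1, of which 36 were higher and 51 lower. The 3 libraries a side did not overlap for 566 of the 567 called genes, and for 17.7% of all genes tested (7.49% with topp-7m above and 10.2% with it below). For scale, topp-7m differed from wild type in 2334 genes (11.6%) and pp1r3-2 topp4-1 in 2631 genes (13.1%). These comparisons with wild type share the 3 wild-type libraries.

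The number of calls varied when 1 library was left out, which also leaves fewer libraries in its group. It was 205 without topp-7m replicate 2, 263 without topp-7m replicate 1 and 571 without topp-7m replicate 3. Without pp1r3-2 topp4-1 replicates 1, 2 and 3 it was 361, 392 and 344. All 6 of these fits called 165 of the 567 genes, 42 higher and 123 lower in topp-7m. No gene that was still called in a fit changed sign in it. Of the called genes, 556 were protein-coding, 6 were unannotated loci, 2 were long noncoding RNAs, 2 other noncoding RNAs and 1 a nontranslated sequence.

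**Figure D2:**
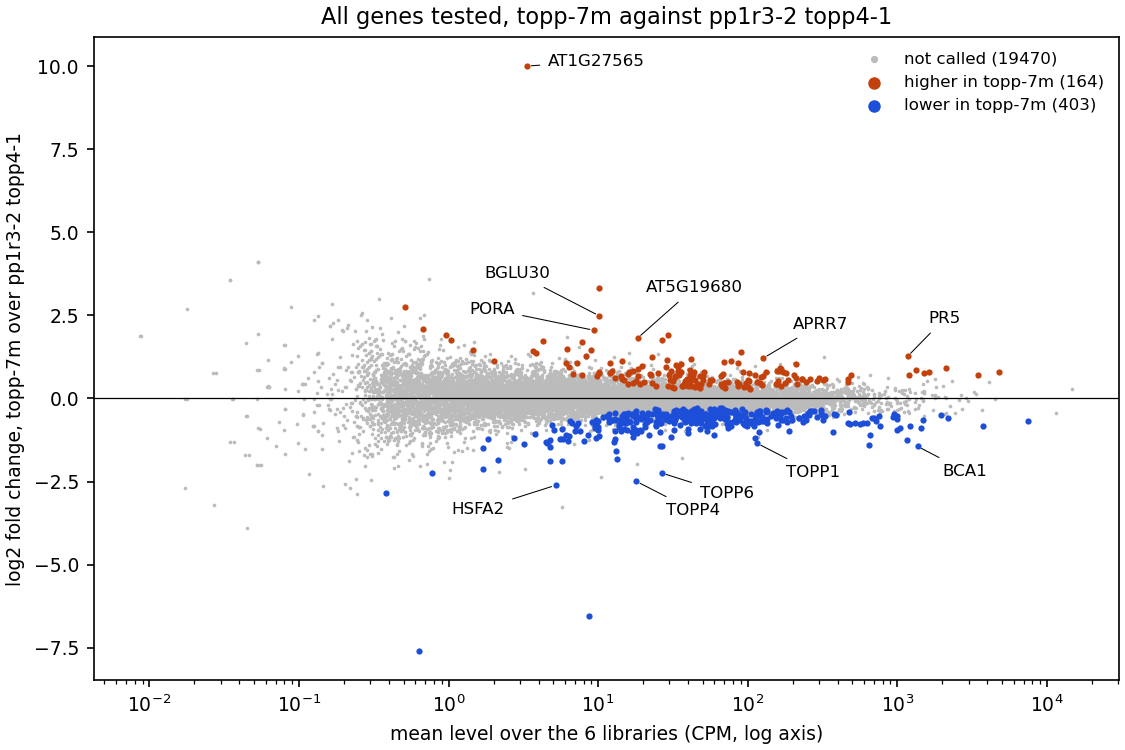
Each point is 1 gene tested with a count in the 6 libraries, with its mean level in CPM on a log axis and the log2 fold change of topp-7m over pp1r3-2 topp4-1 on the vertical axis. The 164 genes called higher (orange) and the 403 called lower (blue) lie mostly close to 0, and AT1G27565 stands alone at the top.

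Transcripts of 5 of the 9 TOPP genes were lower in topp-7m (55.6%, against 2.01% of all genes tested). None was called higher, and the median log2 fold change of the 9 was -0.81 against 0.011 over all genes. TOPP4 (AT2G39840, chromosome 2, 16627216 to 16629412, plus strand, TAIR10.1) was read at 5.04, 5.61 and 5.66 CPM in topp-7m and at 27.9, 30.7 and 33.3 CPM in pp1r3-2 topp4-1. Every topp-7m library was far below every double mutant library, and the latter lay around the wild-type mean of 30.8 ± 1.80 CPM (SD, n = 3). The log2 fold change of TOPP4 was -2.49 ± 0.10 (adjusted p = 9.2e-10). In pp1r3-2 topp4-1 the level of TOPP4 did not differ beyond its error from wild type (log2 fold change -0.01, adjusted p = 0.97), and a transcript level does not show whether the topp4-1 allele is present. AT4G11240, called TOPP6 in the table and TOPP7 in the RefSeq annotation, gave 8.94, 9.89 and 9.16 CPM against 46.2, 42.4 and 44.2 CPM. Its 2 groups were far apart and its log2 fold change was -2.25 ± 0.10 (adjusted p = 1.11e-09).

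TOPP1, the most abundant catalytic subunit transcript in pp1r3-2 topp4-1 at 111.8 RPKM (CPM per kilobase of the gene length in the table), was at 58.4, 64.9 and 72.4 CPM in topp-7m and at 156, 160 and 182 CPM in the double mutant. It was lower in topp-7m in all 3 libraries, with a log2 fold change of -1.35 ± 0.11 (adjusted p = 6.53e-06). Its level in pp1r3-2 topp4-1 was above the wild-type mean of 130 CPM (log2 fold change against wild type 0.35, adjusted p = 0.042). TOPP9 fell by 0.81 ± 0.14 on the log2 scale (adjusted p = 0.00441), from 16.5 to 18.4 CPM in the double mutant to 8.47 to 11.6 CPM. AT5G43380, called TOPP7 in the table, was weakly expressed at 0.943 to 1.2 CPM against 2.22 to 2.78 CPM, and its log2 fold change was -1.22 ± 0.27 (adjusted p = 0.0247). That call was made in 1 of the 6 fits that leave out a library, without pp1r3-2 topp4-1 replicate 2, and its adjusted p in the 6 ranged from 0.0382 to 0.0835.

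The other 4 TOPP genes were not called. TOPP3 had a log2 fold change of 0.30 ± 0.09 (adjusted p = 0.0969), TOPP8 of -0.16 ± 0.09, TOPP5 of -0.15 ± 0.10 and TOPP2 of 0.00 ± 0.09. Per length, TOPP3 at 45.5 and TOPP1 at 43.9 RPKM were the highest in topp-7m, TOPP2 followed at 34.2, and TOPP4, TOPP9 and AT5G43380 were the lowest at 3.38, 3.90 and 0.542. In pp1r3-2 topp4-1 TOPP1 at 111.8 was followed by TOPP3 at 36.9, TOPP2 at 34.4 and AT4G11240 at 30.0. The CPM of the 9 genes added up to 289 to 339 in topp-7m and to 448 to 518 in the double mutant, without overlap. The TOPP count of 5 was 4 when topp-7m replicate 1, 2 or 3 or double mutant replicate 1 or 3 was left out.

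**Figure D3:**
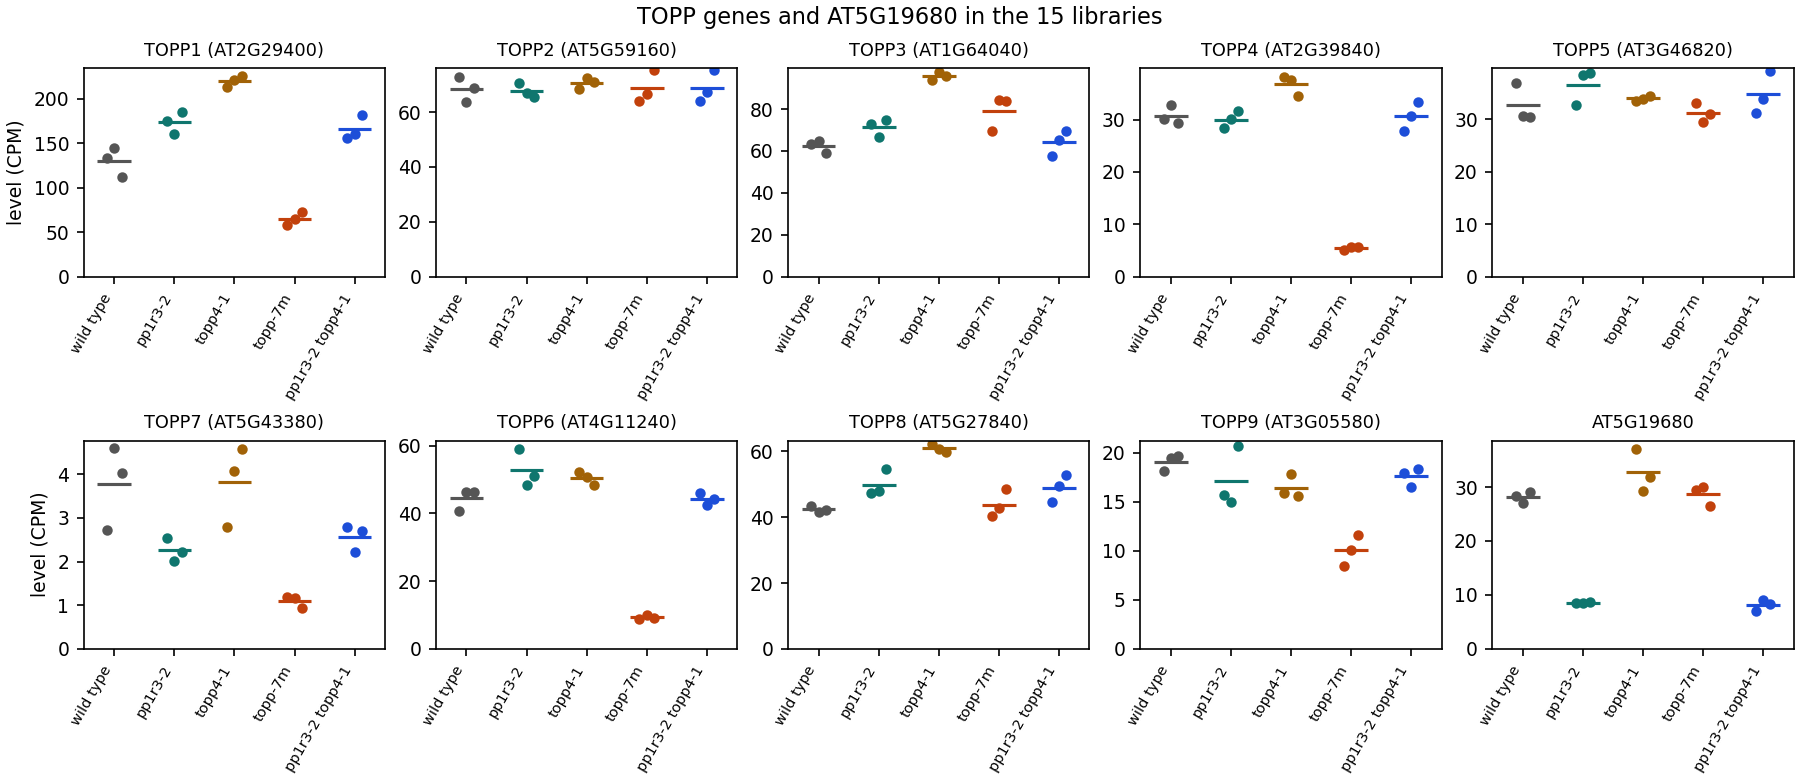
Levels in CPM of the 9 TOPP genes and of AT5G19680 in each of the 15 libraries, by genotype, with points for libraries and bars for the mean of 3. TOPP4, TOPP6 (AT4G11240), TOPP1 and TOPP9 are lowest in topp-7m, and AT5G19680 is low in pp1r3-2 and in pp1r3-2 topp4-1, the latter at 6.92 to 9.07 CPM.

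Among 4 genes of PP1 regulators and inhibitors, 1 differed (25%, against 2.83% of all genes tested). AT5G19680 (chromosome 5, 6649574 to 6652046, plus strand, TAIR10.1) encodes a leucine-rich repeat protein of the SDS22 kind, a conserved PP1 regulatory subunit known from yeast and animals. It was at 29.4, 30.0 and 26.5 CPM in topp-7m and at 6.92, 9.07 and 8.36 CPM in pp1r3-2 topp4-1. The topp-7m libraries were all higher and lay near the wild-type mean of 28.1 ± 1.08 CPM (SD, n = 3). The log2 fold change was 1.82 ± 0.11 (adjusted p = 2.09e-07), and 1.71 to 1.91 when any 1 library was left out. In counts, the double mutant gave 127 to 176 and pp1r3-2 gave 151 to 168, while wild type, topp4-1 and topp-7m gave 506 to 730. AT5G19680 was thus low in both genotypes that carry pp1r3-2, and the labels do not say at which locus that mutation lies. The other 3, the nuclear inhibitor NIPP1 (AT5G47790), inhibitor-3 INH3 and inhibitor-2 I-2, had log2 fold changes of 0.15 ± 0.12, 0.12 ± 0.13 and 0.08 ± 0.09 and were not called.

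Of 13 genes listed for the day and evening part of the clock, 4 were higher in topp-7m (30.8%, against 0.818% of all genes tested). None was lower and 9 were not called. The log2 fold changes of the 13 ran from -0.38 to 1.22 with a median of 0.29, and 4 were negative. The Arabidopsis clock is a loop in which morning MYB-like factors such as CCA1 and LHY repress evening genes through the evening element, and the PRR proteins repress the morning factors in turn. The 300 bases before the start of APRR5 (chr5:8358547-8358846, minus strand) and of ADO3 (chr1:25508339-25508638, plus strand) are shown because both hold that element. They were read from the RefSeq genome TAIR10.1, and the capitals mark AAAATATCT on either strand.
APRR5: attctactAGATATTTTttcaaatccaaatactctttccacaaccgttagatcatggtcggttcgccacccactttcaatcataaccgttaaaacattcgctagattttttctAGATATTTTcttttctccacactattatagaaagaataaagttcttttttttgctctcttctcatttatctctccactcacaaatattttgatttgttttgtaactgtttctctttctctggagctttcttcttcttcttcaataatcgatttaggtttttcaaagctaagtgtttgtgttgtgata
ADO3: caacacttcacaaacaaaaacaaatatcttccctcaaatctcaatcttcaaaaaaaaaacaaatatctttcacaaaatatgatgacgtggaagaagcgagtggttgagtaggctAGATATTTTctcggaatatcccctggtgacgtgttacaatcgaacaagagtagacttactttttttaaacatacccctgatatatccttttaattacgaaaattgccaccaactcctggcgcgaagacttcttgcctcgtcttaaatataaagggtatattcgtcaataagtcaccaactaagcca
The element was found 2 times in APRR5, at 292 to 284 and 187 to 179 bases before the start, and once in ADO3, at 186 to 178 bases before it. It stood in 2 of the 4 promoters of the called genes and in 578 of the 19314 promoters of that length (2.99%).

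APRR7, a pseudo-response regulator that represses morning genes, was at 159, 190 and 185 CPM in topp-7m and at 70.9, 67.9 and 91.2 CPM in pp1r3-2 topp4-1. All topp-7m libraries were higher, and the log2 fold change was 1.22 ± 0.13 (adjusted p = 0.000199). Its relative APRR5 was at 50.4, 74.0 and 49.8 CPM against 18.8, 28 and 29.0 CPM, with a log2 fold change of 1.2 ± 0.21 (adjusted p = 0.00812). The groups did not overlap, and topp-7m replicate 2 was the highest. GI, which links the clock to light and flowering, had 34.4, 39.3 and 38.2 CPM against 14.4, 19.6 and 24.4 CPM (log2 fold change 0.94 ± 0.19, adjusted p = 0.0145). ADO3, the blue-light F-box protein FKF1, had 24.1, 32.8 and 21.4 CPM against 8.34, 15.7 and 16.1 CPM (log2 fold change 0.96 ± 0.22, adjusted p = 0.0285). For APRR5, GI and ADO3 the topp-7m means lay close to wild type, with log2 fold changes against it of 0.32, 0.22 and 0.11, and the double mutant lay below it at -0.88, -0.72 and -0.86. For APRR7 the value against wild type was 0.92 in topp-7m and -0.30 in the double mutant. Both sets share the wild-type libraries.

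Of 10 morning genes, 1 was called higher and 1 lower (20%, against 2.83% of all genes), and the median log2 fold change was -0.28. RVE2, a morning MYB-like factor, was at 66.8, 55.6 and 83.7 CPM in topp-7m and at 139, 152 and 174 CPM in the double mutant. It was lower in every topp-7m library, with a log2 fold change of -1.17 ± 0.15 (adjusted p = 0.000667). RVE7, a MYB-like factor of the same family, had 20.3, 22.1 and 21.1 CPM against 15.5, 14.6 and 13.5 CPM (log2 fold change 0.54 ± 0.12, adjusted p = 0.0231). LHY had 149, 145 and 207 CPM against 266, 209 and 258 CPM and was not called (log2 fold change -0.55 ± 0.15, adjusted p = 0.0617). The count of 4 day and evening genes was 2 without topp-7m replicate 2 and 3 without topp-7m replicate 1 or double mutant replicate 1. APRR7 and APRR5 were called in all 6 fits that leave out a library. RVE2 was called in all 6. The lower count of morning genes was 3 without topp-7m replicate 3 or double mutant replicate 2, and RVE7 was called in 2 of the 6 fits, not without topp-7m replicate 1 or 2 or double mutant replicate 2 or 3, at an adjusted p of up to 0.103. The labels give no time of day for the harvest.

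Photosynthesis genes moved in both directions. Of 47 tested, 5 were higher in topp-7m, all of them light-harvesting antenna genes, and 7 were lower, among them genes of carbon fixation. The median log2 fold change of the 47 was 0.07, and 25.5% were called, against 2.83% of all genes tested. For 1 gene of each direction the 300 bases before the start are shown, since they hold a motif known from such promoters. In LHB1B1 (chr2:14524307-14524606, plus strand) the capitals mark the CCA1-binding site AAAAATCT, and in RBCS-2B (chr5:15382072-15382371, minus strand) they mark the I-box GATAAG, each on either strand, in the RefSeq genome TAIR10.1.
LHB1B1: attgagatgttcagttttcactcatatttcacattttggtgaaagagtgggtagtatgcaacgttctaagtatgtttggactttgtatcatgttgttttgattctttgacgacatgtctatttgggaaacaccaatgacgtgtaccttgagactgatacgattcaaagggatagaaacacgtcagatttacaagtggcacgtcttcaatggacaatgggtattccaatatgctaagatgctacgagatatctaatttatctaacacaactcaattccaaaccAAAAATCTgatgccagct
RBCS-2B: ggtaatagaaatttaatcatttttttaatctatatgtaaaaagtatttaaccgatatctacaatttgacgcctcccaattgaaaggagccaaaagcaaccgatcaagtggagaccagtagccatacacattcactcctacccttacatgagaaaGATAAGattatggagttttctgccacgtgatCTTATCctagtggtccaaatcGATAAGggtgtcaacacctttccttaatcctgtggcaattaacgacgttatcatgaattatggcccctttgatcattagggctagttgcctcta
AAAAATCT was found in 3 of the 5 higher genes, LHCA4, LHB1B1 and 1 of the LHCB1.1 copies, in 0 of the 7 lower genes and in 8.01% of the 19314 promoters. GATAAG was found in 2 of the 7 lower genes, RBCS-2B with 3 matches and RCA, in 0 of the 5 higher genes and in 14.6% of all promoters.

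The antenna gene AT1G29910 (LHCB1.1 in the table) was at 2766, 2620 and 2959 CPM in topp-7m and at 1773, 1473 and 1172 CPM in pp1r3-2 topp4-1. It was higher in every topp-7m library, with a log2 fold change of 0.92 ± 0.16 (adjusted p = 0.00637). AT1G29920, which carries the same symbol, had 5291, 6367 and 6533 CPM against 4107, 3055 and 3296 CPM (log2 fold change 0.80 ± 0.17, adjusted p = 0.0184). LHB1B1 had a log2 fold change of 0.81 ± 0.20, the photosystem I antenna gene LHCA4 of 0.69 ± 0.16. LHCB2.2, outside the naming rule and chosen after its values were seen, was at 0.70 ± 0.17 and was called in 1 of the 6 fits that leave out a library. These LHCB copies are nearly identical, so reads may be split between them and each is uncertain singly. Against wild type, LHB1B1 was at 0.09 in topp-7m and -0.71 in the double mutant, while LHCA4 was at 0.74 and 0.05.

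On the other side, the small subunit of Rubisco, the enzyme that fixes carbon dioxide, was lower in topp-7m for 3 of its genes. Its most abundant gene, RBCS-1A, was not called, at 8356, 10353 and 10437 CPM in topp-7m and 13532, 11870 and 14282 CPM in the double mutant. RBCS-2B was at 625, 638 and 790 CPM in topp-7m and at 1509, 1526 and 1878 CPM in the double mutant. The groups were well apart, and the log2 fold change was -1.26 ± 0.15 (adjusted p = 0.000493). RBCS-1B and AT5G38410 had log2 fold changes of -1.11 ± 0.16 and -0.84 ± 0.14, and the RBCS copies share the same uncertainty. GAPB, an enzyme of the Calvin cycle, fell by 0.66 ± 0.12. PRK, of the same cycle, was chosen outside the naming rule after its values were seen and fell by 0.56 ± 0.13, and PSBS, which serves energy dissipation, fell by 0.54 ± 0.10. The activase of Rubisco, RCA, had the largest fall in CPM among the called genes named, from 8105, 8396 and 11076 CPM in the double mutant to 4981, 5540 and 6860 CPM (log2 fold change -0.67 ± 0.16, adjusted p = 0.0401). Outside the list, the carbonic anhydrase genes BCA1 and BCA2 fell by 1.44 ± 0.19 and 0.90 ± 0.17, and the plastid aldolase gene FBA2 fell by 0.60 ± 0.13. BCA1 was at 561, 740 and 915 CPM against 1820, 1886 and 2315 CPM, without overlap. Against wild type, RBCS-2B was at -0.99 in topp-7m and 0.27 in the double mutant, and BCA1 at -0.81 and 0.63.

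The antenna calls were less stable than those of RBCS. The count of 5 higher genes was 1 without topp-7m replicate 2 or double mutant replicate 2, 2 without topp-7m replicate 3 or double mutant replicate 1 or 3, and 4 without topp-7m replicate 1. AT1G29910 was called in all 6 fits, while LHCA4 was called in 0 of 6 with an adjusted p of 0.0534 to 0.0947. The count of 7 lower genes was 3 to 7 in those fits, with 3 without topp-7m replicate 2 and 4 without topp-7m replicate 1. RBCS-2B, RBCS-1B, AT5G38410 and BCA1 were called in all 6. GAPB was not called without topp-7m replicate 2, PSBS not without topp-7m replicate 1 or 2, and PRK was called in 1 of the 6, without topp-7m replicate 3. AT1G29920 was called in 3 of the 6 and LHB1B1 in 2. BCA2 was not called without topp-7m replicate 1 or 2 (adjusted p up to 0.0537), nor FBA2 without those or double mutant replicate 3 (up to 0.0944). RCA was called in 2 of them and was not called without topp-7m replicate 1 or 2 or double mutant replicate 2 or 3, at an adjusted p of up to 0.164. In RNA from whole leaves, fewer cells of a type and less RNA per cell cannot be told apart. The leaf markers include photosynthesis genes, RCA among them. Their sums, scaled to unadjusted library sizes, were lower in topp-7m in all 3 libraries. With the adjusted library sizes used for single genes, that order does not hold. There LHCB1.3, RBCS-1A and RCA were at 17160, 10437 and 6860 CPM in topp-7m replicate 3. In double mutant replicate 2 they were at 13081, 11870 and 8396 CPM. The 8 markers did not move together, with 4 positive and 4 negative log2 fold changes and a median of -0.06. The most abundant, LHCB1.3, was higher in every topp-7m library, at 14882, 16511 and 17160 CPM against 14323, 13081 and 12827 CPM.

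Of 13 genes listed for darkness and sugar starvation, 3 were higher in topp-7m (23.1%, against 0.818% of all genes tested). None was lower and 10 were not called, with a median log2 fold change of 0.41 over the 13. The list also holds the trehalose phosphate synthase genes TPS5 to TPS11. BGLU30, a dark-inducible beta-glucosidase gene, was at 14, 27.3 and 10.5 CPM in topp-7m and at 3.98, 2.01 and 3.27 CPM in the double mutant. All topp-7m libraries were higher and replicate 2 was the highest, and the log2 fold change was 2.49 ± 0.44 (adjusted p = 0.0102). BCAT2, a branched-chain amino acid aminotransferase gene, was at 103, 195 and 96.3 CPM against 51.7, 40.6 and 57.7 CPM, again highest in replicate 2 (log2 fold change 1.39 ± 0.24, adjusted p = 0.00684). DIN4, which encodes a subunit of the branched-chain keto acid dehydrogenase, had a log2 fold change of 0.56 ± 0.12 (adjusted p = 0.0225). ASN1, the glutamine-dependent asparagine synthetase, had 302, 701 and 363 CPM against 244, 109 and 220 CPM and was not called (log2 fold change 1.25 ± 0.42, adjusted p = 0.154). The count of 3 was 2 without topp-7m replicate 2 or double mutant replicate 1 or 2, and 4 without topp-7m replicate 1 or double mutant replicate 3. BGLU30 and BCAT2 were called in all 6 fits. A fit of only the 6 libraries compared called BGLU30 alone of the 13, with an adjusted p of 0.0906 for BCAT2 and 0.116 for DIN4.

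Among the other highest folds were those of a pair of alpha-amylase genes. AMY1, a secreted alpha-amylase, had 13.0, 12 and 11.1 CPM in topp-7m against 2.94, 3.82 and 4.23 CPM (log2 fold change 1.71 ± 0.25, adjusted p = 0.00213). AMY3, the plastid alpha-amylase, had 104, 135 and 115 CPM against 46.8, 64.4 and 56.7 CPM (log2 fold change 1.07 ± 0.15, adjusted p = 0.0012). Neither overlapped between the groups. For AMY1 topp-7m lay above wild type at 1.57 on the log2 scale with the double mutant at -0.15, while for AMY3 topp-7m was at -0.08 and the double mutant at -1.15. PORA, a protochlorophyllide reductase known from dark-grown seedlings, had 13.5, 17.0 and 14.9 CPM against 5.40, 3.20 and 2.32 CPM (log2 fold change 2.05 ± 0.28, adjusted p = 0.0012). ATGRP9, which encodes a glycine-rich protein, had 46.8, 55.0 and 37.5 CPM against 13.7, 12.5 and 10.8 CPM (log2 fold change 1.91 ± 0.22, adjusted p = 0.000655). In topp4-1, whose allele the double mutant carries, ATGRP9 had a mean of 724 CPM and BGLU30 of 137 CPM, far above both groups compared here. All 4 of these genes were called in all 6 fits that leave out a library.

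The remaining genes of the 15 highest folds had varied functions. The pectin acetylesterase gene PAE9, the low-sulfur response gene LSU1, the U-box gene PUB36 and the calmodulin-like genes CML38 and CML41 had log2 fold changes of 1.49 ± 0.25, 1.47 ± 0.30, 1.27 ± 0.27, 1.24 ± 0.22 and 1.12 ± 0.18. CCOAMT, an O-methyltransferase gene, had 85.4, 103 and 96.6 CPM in topp-7m and 39.3, 37.2 and 55.7 CPM in the double mutant (log2 fold change 1.11 ± 0.20, adjusted p = 0.00886). LSU1 was not called without topp-7m replicate 1 or double mutant replicate 2 or 3 (adjusted p up to 0.0715), nor PUB36 without topp-7m replicate 2 or double mutant replicate 1 or 2 (up to 0.110). PAE9, CML38, CML41 and CCOAMT were called in all 6 fits, but CML38 not in the fit of only the 6 libraries compared (adjusted p = 0.0521).

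Of 7 heat shock genes tested, 4 were lower in topp-7m (57.1%, against 2.01% of all genes tested). None was higher and 3 were not called, with a median log2 fold change of -0.49 over the 7. Heat shock factors switch on chaperone genes through the heat shock element, and HSFA2 is a factor that is itself induced by heat. The 300 bases before its start (chr2:11135324-11135623, plus strand, TAIR10.1) are shown for their 2 matches, in capitals, to GAANNTTC.
HSFA2: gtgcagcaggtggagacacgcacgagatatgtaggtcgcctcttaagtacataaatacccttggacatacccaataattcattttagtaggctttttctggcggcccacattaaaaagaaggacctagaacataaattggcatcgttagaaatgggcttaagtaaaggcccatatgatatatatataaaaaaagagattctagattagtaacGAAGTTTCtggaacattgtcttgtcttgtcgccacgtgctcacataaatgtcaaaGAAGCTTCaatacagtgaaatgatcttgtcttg
GAANNTTC reads the same on both strands and was also found in HSP90-1 but not in the windows of the other 2 called genes, and 11.4% of all promoters held it. HSFA2 was at 1.4, 1.22 and 1.73 CPM in topp-7m and at 3.05, 7.99 and 15.8 CPM in pp1r3-2 topp4-1. The groups did not overlap, but the double mutant libraries spread widely, with replicate 3 the highest. The log2 fold change was -2.61 ± 0.54 (adjusted p = 0.0195).

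HSP90-1, an inducible cytosolic chaperone, was also highest in double mutant replicate 3, at 11.4, 12.2 and 19.7 CPM against 21.5, 40.4 and 54.4 CPM (log2 fold change -1.42 ± 0.33, adjusted p = 0.0387). CLPB1, the disaggregase HSP101, fell by 0.66 ± 0.16 and MED37E, a constitutive cytosolic Hsp70, fell by 0.49 ± 0.11. The count of 4 was 0 without topp-7m replicate 1, without topp-7m replicate 2, without double mutant replicate 3 and in the fit of only the 6 libraries compared. It was 2 without double mutant replicate 2, 3 without topp-7m replicate 3 and 4 without double mutant replicate 1. Over the 6 fits that leave out a library, the log2 fold change of HSFA2 ranged from -3.02 to -1.92 and its adjusted p from 0.00337 to 0.103. HSFA2 was called in 2 of the 6. Double mutant replicate 3, the highest for HSFA2 and HSP90-1, is the library that stood apart from its group and had the lowest meristem markers, and the part of that in the heat shock values was not tested.

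**Figure D4:**
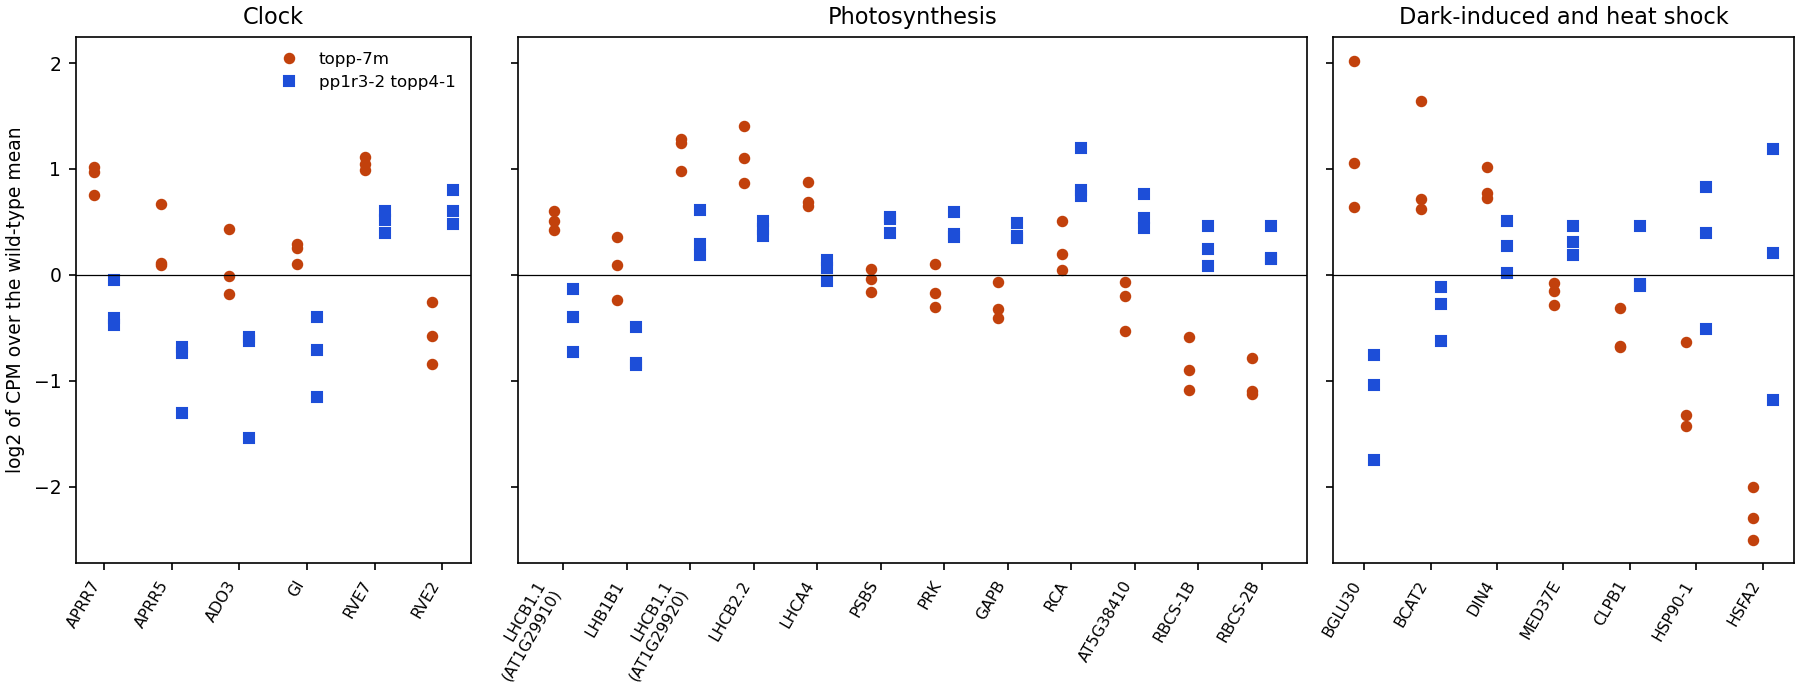
Every called member of the clock, photosynthesis, dark-induced and heat shock lists, with the CPM of each topp-7m library (circles) and pp1r3-2 topp4-1 library (squares) as log2 of its ratio to the wild-type mean. The day and evening clock genes and the antenna genes plotted are higher in topp-7m and the RBCS genes lower, and the squares of HSFA2 spread the widest.

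Of 14 targets of salicylic acid, the hormone of defence against biotrophic pathogens, 2 were higher in topp-7m (14.3%, against 0.818% of all genes tested). None was lower, and the median log2 fold change was 0.22. PR5, a thaumatin-like antimicrobial protein, was at 1451, 1396 and 2147 CPM in topp-7m and at 663, 711 and 695 CPM in the double mutant. The groups were well apart, and the log2 fold change was 1.27 ± 0.24 (adjusted p = 0.0108). BGL2, the beta-glucanase PR2, had 1626, 1472 and 2077 CPM against 829, 995 and 1018 CPM (log2 fold change 0.86 ± 0.18, adjusted p = 0.0143). PR1 had 4569, 4751 and 5087 CPM against 3669, 3398 and 3213 CPM. Its groups did not overlap, yet it was not called (log2 fold change 0.49 ± 0.16, adjusted p = 0.12). Against wild type PR5 was at 0.41 in topp-7m and -0.86 in the double mutant. PR5 was called in all 6 fits that leave out a library, and BGL2 not without double mutant replicate 1 (adjusted p = 0.0629).

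The genes upstream of these targets did not pass the test. At a share of 2.83% called over all genes tested, lists of this size may hold no call. None of 14 genes of salicylic acid synthesis and regulation, of 18 NLR immune receptors or of 20 genes of pattern-triggered immunity was called, with medians of 0.05, -0.08 and -0.03. ICS1, the salicylic acid synthesis gene EDS16 of the table, had a log2 fold change of 0.20 ± 0.18, and CBP60G, which switches it on, of 0.36 ± 0.15. The receptor gene RPP4 came closest among the NLR genes at 0.52 ± 0.15 (adjusted p = 0.0883), and WRKY29 and the mitogen-activated kinase gene MPK3 were at -0.62 ± 0.34 and 0.14 ± 0.11. Camalexin and indole glucosinolate genes (14), aliphatic glucosinolate genes (19) and folding genes of the endoplasmic reticulum (9) also had no called member.

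Of 18 flavonoid and anthocyanin genes, 3 were lower in topp-7m (16.7%, against 2.01% of all genes tested). None was higher and 15 were not called, with a median log2 fold change of -0.35 over the 18. MYB111, a factor that switches on flavonol synthesis, was at 2.76, 3.72 and 3.98 CPM in topp-7m and at 10.8, 5.26 and 8.47 CPM in the double mutant. The groups did not overlap, and the log2 fold change was -1.23 ± 0.26 (adjusted p = 0.0208). The glycosyltransferase gene UGT78D2 fell by 0.67 ± 0.16 (adjusted p = 0.037) and the chalcone isomerase gene CHI1 by 0.48 ± 0.12 (adjusted p = 0.0465). The count of 3 was 0 without topp-7m replicate 1, topp-7m replicate 2 or double mutant replicate 1, and 2 without topp-7m replicate 3 or double mutant replicate 3, with adjusted p-values of up to 0.0969 for MYB111, 0.159 for UGT78D2 and 0.199 for CHI1.

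Of 11 auxin transport genes, 2 were called, both lower in topp-7m (18.2%, against 2.01% of all genes tested). PID, a kinase that steers the PIN efflux carriers, was at 3.43, 3.33 and 1.68 CPM in topp-7m and at 6.98, 7.89 and 5.19 CPM in the double mutant (log2 fold change -1.25 ± 0.24, adjusted p = 0.00921). It was lower in all 3 libraries and was called in all 6 fits that leave out a library, but not in the fit of only the 6 libraries compared (adjusted p = 0.122). The carrier gene PIN3 had 93.1, 86.2 and 125 CPM against 135, 132 and 150 CPM (log2 fold change -0.45 ± 0.12, adjusted p = 0.047), and was called in 1 of the 6, without topp-7m replicate 3. None of 13 auxin response genes was called, and GH3.5, which conjugates auxin, was at 0.42 ± 0.17. Of 19 wall-loosening genes, 2 were called, both lower (10.5%, against 2.01% of all genes tested). XTH33 fell by 1.85 ± 0.40 and ATEXPA10, an expansin gene, by 0.75 ± 0.16. XTH33 was weakly expressed, at 0.936, 0.333 and 1.52 CPM in topp-7m and 3.43, 3.76 and 2.94 CPM in the double mutant. XTH33 and ATEXPA10 were called in 2 of the 6 fits each. The wall-loosening count was 2 without double mutant replicate 3, 1 without topp-7m replicate 1 or 3 and 0 without topp-7m replicate 2 or double mutant replicate 1 or 2.

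Single calls came from 3 more lists, beside a share of 2.83% over all genes tested. PIF4, a growth-promoting factor that phytochromes break down, had 53.9, 44.5 and 60.1 CPM in topp-7m against 23.3, 32.0 and 32.3 CPM (log2 fold change 0.86 ± 0.18, adjusted p = 0.0195), and it was 1 of 12 genes of phytochrome and shade response. CAT2, the peroxisomal catalase of photorespiration, had 444, 506 and 697 CPM against 777, 912 and 1247 CPM (log2 fold change -0.83 ± 0.19, adjusted p = 0.0321), and it was 1 of 8 redox genes. The groups did not overlap for either gene. ATHB-12, an abscisic acid induced homeobox gene, had 34.5, 34.2 and 40.0 CPM against 24.6, 24.7 and 25 CPM (log2 fold change 0.55 ± 0.13, adjusted p = 0.0383). PIF4 was not called without topp-7m replicate 1 or 3 or double mutant replicate 1 (adjusted p up to 0.0743), CAT2 not without topp-7m replicate 1 or 2 or double mutant replicate 2 or 3 (up to 0.140), and ATHB-12 in 0 of the 6 fits (0.0774 to 0.111).

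Jasmonate genes, which respond to wounding and herbivory, had no called member among 11 JAZ repressors, 11 synthesis genes, 9 turnover genes and 12 factors and wound targets, nor had 13 genes of the ethylene and jasmonate branch. The medians of the first 4 lists were -0.24, -0.23, -0.19 and -0.04, and the share called over all genes tested was 2.83%. JAZ10, a repressor gene that jasmonate induces, was at 4.0, 4.0 and 2.3 CPM in topp-7m and at 5.18, 6.24 and 3.84 CPM in the double mutant, with a wild-type mean of 37.7 ± 13.2 CPM (SD, n = 3). The 2 mutants overlapped in JAZ10 (log2 fold change -0.57 ± 0.30, adjusted p = 0.413), and against wild type they were at -3.46 and -2.89. CYP94C1, which oxidizes the active hormone, was at 3.90, 5.95 and 5.71 CPM against 5.83, 7.32 and 5.93 CPM, with a wild-type mean of 50.3 ± 12.8 CPM (SD, n = 3). Its related gene CYP94B3 gave 1 to 3 counts in topp-7m, 0 to 2 in the double mutant and 365 to 796 in wild type. A missing call does not show that the 2 mutants were equal, and the SE of JAZ10 was 0.30 on the log2 scale.

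Cold and abscisic acid genes had 1 of 22 called (4.55%, against 2.83% of all genes tested) and a median log2 fold change of 0.21. COR15B, a chloroplast protectant induced by cold, was at 16.9, 17.8 and 9.64 CPM in topp-7m and at 8.45, 7.48 and 9.09 CPM in the double mutant (log2 fold change 0.83 ± 0.22, adjusted p = 0.0576), below the wild-type mean of 35.5 CPM in each library. The dehydrin genes XERO2 and ERD10 had log2 fold changes of 0.67 ± 0.23 and 0.50 ± 0.18 between the mutants. Against wild type XERO2 was at -3.68 in topp-7m and -4.35 in the double mutant, and ERD10 at -2.66 and -3.15, with the wild-type libraries shared. The 7 CBF and DREB2 factor genes all had negative log2 fold changes of -0.75 to -0.14, and none was called.

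The other lists held no called gene. They were 9 abscisic acid receptors, 7 clade A PP2C phosphatases, 15 SnRK2 kinases and ABF factors, 17 gibberellin genes, 3 nitrilases, 15 senescence genes, 19 stomatal genes, 12 cell cycle genes and 5 flowering time genes. SEN1, listed as STR15 in the table, came close with 228, 374 and 222 CPM against 124, 91.1 and 181 CPM (log2 fold change 1.06 ± 0.28, adjusted p = 0.0591). The 12 cell cycle genes had a median log2 fold change of 0.43, 11 of them positive. CYCB1-2, a mitotic cyclin gene, was at 21.7, 23.0 and 7.91 CPM in topp-7m and at 16.0, 13.7 and 4.12 CPM in the double mutant. It was lowest in replicate 3 of each group, and the groups overlapped (adjusted p = 0.593). Over all 36 lists, 43 of 479 tested genes were called (8.98%, against 2.83% of all genes), 18 higher and 25 lower. The lists were chosen with earlier results of these data known and include the TOPP genes with 5 calls. The excess over all genes is therefore not a test of the lists. Of the 43, 16 were called in all 6 fits that leave out a library.

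**Figure D5:**
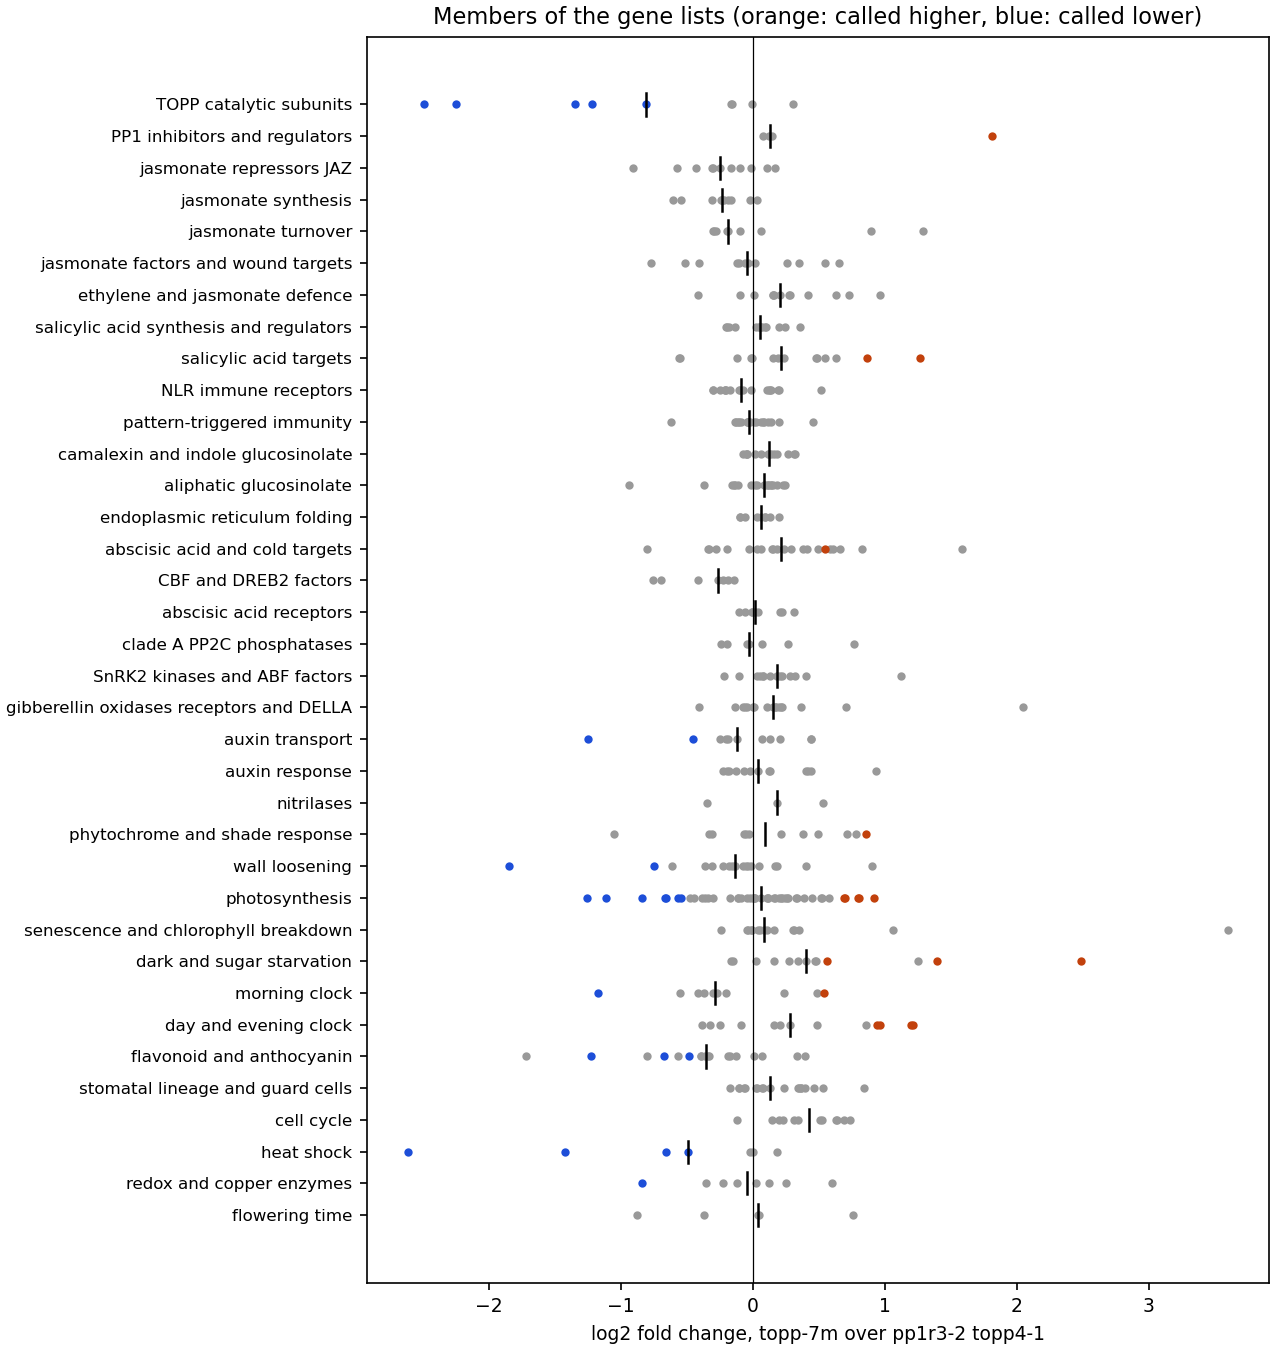
Log2 fold changes of topp-7m over pp1r3-2 topp4-1 for every tested member of the 36 lists, with a black bar at each list's median. Called members are orange (higher, 18) or blue (lower, 25), and the TOPP, heat shock, photosynthesis and day and evening clock lists hold 5, 4, 12 and 4 of them.

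Several of the lowest folds lay outside the lists. SQE5, a squalene epoxidase-like gene, was at 4.94, 5.11 and 7.91 CPM in topp-7m and at 16.1, 23.4 and 23.4 CPM in the double mutant (log2 fold change -1.81 ± 0.29, adjusted p = 0.00378). The cytochrome P450 gene CYP71B12 had 6.45, 6.11 and 9.37 CPM against 15.1, 19.2 and 20.0 CPM (log2 fold change -1.31 ± 0.18, adjusted p = 0.00133). Neither gene overlapped between the groups, and for both the double mutant was above wild type, at 2.48 and 1.86 on the log2 scale, with topp-7m at 0.67 and 0.55. GASA1, a gibberellin-responsive peptide gene, DIR21, a dirigent-like gene, EXL1, an EXORDIUM-like gene, and ATL66, a RING-finger gene, fell by 1.4 ± 0.31, 1.27 ± 0.24, 1.17 ± 0.24 and 1.11 ± 0.26. SQE5, CYP71B12 and DIR21 were called in all 6 fits that leave out a library and GASA1 in 1, without double mutant replicate 1. DIR21 was not called in the fit of only the 6 libraries compared (adjusted p = 0.0602). EXL1 was not called without topp-7m replicate 1 or 2 or double mutant replicate 1 (adjusted p up to 0.0969), nor ATL66 without topp-7m replicate 1 or 2 or double mutant replicate 2 or 3 (up to 0.143).

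A few genes outside the naming rule were chosen after their values were seen, because they differed the most or with the smallest p. AT1G27565, a protein-coding gene on chromosome 1 (9574550 to 9575189, plus strand), gave 120, 126 and 132 counts in topp-7m and 0 in each double mutant library. With 3 counts over the group in place of 0, it was at least 125-fold higher in topp-7m. It gave 0 to 4 counts in the other genotypes. AT3G05955, a long noncoding RNA on chromosome 3 (11586005 to 11586548, minus strand), gave 0 counts in each topp-7m library and 32, 20 and 18 in the double mutant, at least 23.4-fold lower in topp-7m by the same bound. Wild type had 0 to 2 counts of it, pp1r3-2 had 9 to 37 and topp4-1 had 7 to 11.

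Among unannotated loci that the submitters added to the table, 1 locus (chromosome 1, 13126785 to 13128125, minus strand) gave 3, 6 and 1 counts in topp-7m and 266, 309 and 375 in the double mutant. pp1r3-2 gave 160 to 300 counts, topp4-1 gave 48 to 52 and wild type 0 to 5. Another (chromosome 5, 14088074 to 14090094, minus strand) showed the opposite order, with 364, 338 and 334 counts against 33, 47 and 21, and 176 to 383 in the other 3 genotypes. Their log2 fold changes were -6.54 ± 0.49 (adjusted p = 4.55e-06) and 3.34 ± 0.19 (adjusted p = 5e-08). FAD8, a plastid fatty acid desaturase gene known to respond to temperature, was at 33.6, 39.1 and 41.5 CPM in topp-7m and at 79.8, 78.7 and 84.3 CPM in the double mutant (log2 fold change -1.09 ± 0.10, adjusted p = 2.04e-05). RPI2, a ribose-5-phosphate isomerase gene, had 12.5, 12.9 and 11.4 CPM against 23.8, 24.3 and 22.5 CPM (log2 fold change -0.94 ± 0.10, adjusted p = 0.000133). The libraries of the 2 groups were well apart for both genes.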

How the data were processed

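Leaf RNA was sequenced from poly-A selected NEBNext Ultra libraries, per the labels' protocols, and the labelled genotype gave the groups. The authors deposited whole-number read counts per gene, not normalized. HISAT2 2.0.5 is named as the aligner per the submitters' processing notes. Sources used here give no counting tool, strand setting or genome build, so reads of overlapping or antisense genes cannot be told apart.

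From the counts, genes passing edgeR's filterByExpr (minimum count 10, minimum total 15) were kept, 20037 of 33024, and library sizes were adjusted by TMM. All 15 libraries entered 1 quasi-likelihood fit with genotype means (edgeR 4.0.16, R 4.3.3, robust), and topp-7m minus pp1r3-2 topp4-1 was tested with Benjamini-Hochberg adjustment, called under 0.05. SE is the absolute log2 fold change over the square root of F. The common biological coefficient of variation was 14.2%, and total counts of 18052020 to 19916914 per library limit precision for genes of a few counts. Replicates differed by more than sampling noise (chi-square per gene 7.86 to 26.3), and each library was taken as 1 replicate. That spread does not show whether the libraries came from separate plants. The model was tested on simulated data.

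Named genes are the 15 highest and 15 lowest folds among called nuclear protein-coding genes with a symbol, a mean of at least 5 CPM and groups that do not overlap, the 5 largest CPM rises and falls by the same rules, up to 6 members per list by adjusted p, and all 9 TOPP genes. Members and lists were chosen with earlier results of these data known. Promoters are the 300 bases before the gene start in the RefSeq genome TAIR10.1, where 19318 of 19319 genes had the table's coordinates. Alternatives were RLE factors, 2 other filters, DESeq2 1.42.0, a fit of only the 6 libraries, a replicate block, a log2 fold change of at least 1, and leaving out each library.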

Additional observations from a re-analysis of the deposited data

How the results depend on the processing

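The count of 567 calls (164 higher, 403 lower in topp-7m) was 551 with RLE factors, 533 with no filter beyond 1 count and 690 with a filter of 1 CPM in 3 libraries. It was 1053 with DESeq2 (360 higher, 693 lower, 783 genes without an adjusted p), 180 in a fit of only the 6 libraries (52 and 128) and 87 with a log2 fold change of at least 1 (36 and 51). Leaving out a library gave 205 to 571 calls, 67 to 142 higher and 138 to 440 lower. Of the 567 called genes, none that was still called in an alternative changed sign. That count does not cover genes that lost the call. Higher calls were 28.9% of all calls, and 21.1% to 41.3% when a library was left out.

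The labels do not say whether replicate numbers pair the libraries. The correlations of deviations from the group means were 0.388, -0.00294 and 0.514 for libraries of the same number. For libraries of different numbers they ran from -0.525 to 0.393, so these values do not settle the pairing. With the replicate number as a block, 592 genes were called (179 higher, 413 lower), 510 of them among the 567. Among the named genes, the block lost the calls of ATHB-12, CHI1 and LHB1B1.

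Set against the counts above, the fit of only the 6 libraries called 2 day and evening clock, 2 higher and 3 lower photosynthesis, 1 dark and sugar starvation and 4 TOPP genes. It called 1 lower and 0 higher morning clock genes and 0 heat shock, flavonoid, auxin transport, wall-loosening and redox genes. Of the 246 named genes, 60 were called. For a gene such as AT5G43380, with about 1 CPM in topp-7m, depth limits the fold change.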
